A study of Mus musculus with 2 samples.

Results

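RNA of 10 genes used to recognise perivascular and alternatively activated macrophages was described in 2 populations of mouse kidney resident macrophages. The 10 genes were Cbr2, Folr2, Lyve1, Selenop, Dab2, Ednrb, Msr1, Marco, Arg1 and Retnla. They were taken by symbol from a table of 48795 genes, and each was found once in it. R2a was the CD11c-positive population and R2b the CD11c-negative one, CD11c being an integrin surface protein by which the cells were sorted. Both came from kidneys of wild-type C57BL/6 mice aged 8 weeks, which were perfused and digested with enzymes before sorting. RNA of 6 to 8 mice was pooled into 1 library for each population. Variation among mice is therefore unknown, and p-values are not given. The question the comparison addresses is which RNAs set these macrophage populations apart in the healthy kidney.

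Perivascular macrophages lie along small vessels and carry uptake receptors such as LYVE1, which binds hyaluronan, and folate receptor beta. Alternative activation is the state that interleukin-4 and interleukin-13 induce through the transcription factor STAT6, and in the mouse Arg1 and Retnla are its classic products. Class A scavenger receptors such as MSR1 and MARCO take up modified lipoproteins, bacteria and debris.

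Reads assigned to genes numbered 11811923 in R2a and 23915896 in R2b. The transcript of the sort marker, Itgax, stood at 367 CPM (a read count relative to the library total, after scaling by the TMM method) in R2a against 48.9 CPM in R2b, in the direction of the sort. All 11 macrophage core genes checked were over 1 CPM in both libraries, and 0 of them passed the rule of difference given next. The rule asked for a log2 ratio of R2a over R2b, with 0.5 CPM added, of at least 1 in size. The CPM also had to reach 1 in the higher library, and the exact 95% interval of the ratio of CPM had to exclude 1. Intervals stand in parentheses after a ratio and cover counting error only, because each population had 1 library. Reads were counted without molecular identifiers, so the intervals may be too narrow even for that error.

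Abundance separated these genes into 3 that were plentiful in both libraries and 7 that were rare or absent. Selenop, Dab2 and Msr1 held 99.8% of the reads of the set in R2a and 99.7% in R2b. The other 7 together had 63 reads in R2a against 193 in R2b. Lyve1 and Folr2, the genes that give perivascular macrophages their usual names, were under 1 CPM in both libraries, as were Marco and Arg1, and Retnla had 0 reads in either. The genes that define the set's name were therefore near or at the detection limit in these sorted cells, with the reservation that the Folr2 count may be incomplete, as described with that gene. In all, 5 of the 10 genes reached the minimum of 1 CPM in the higher library.

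**Figure D1:**
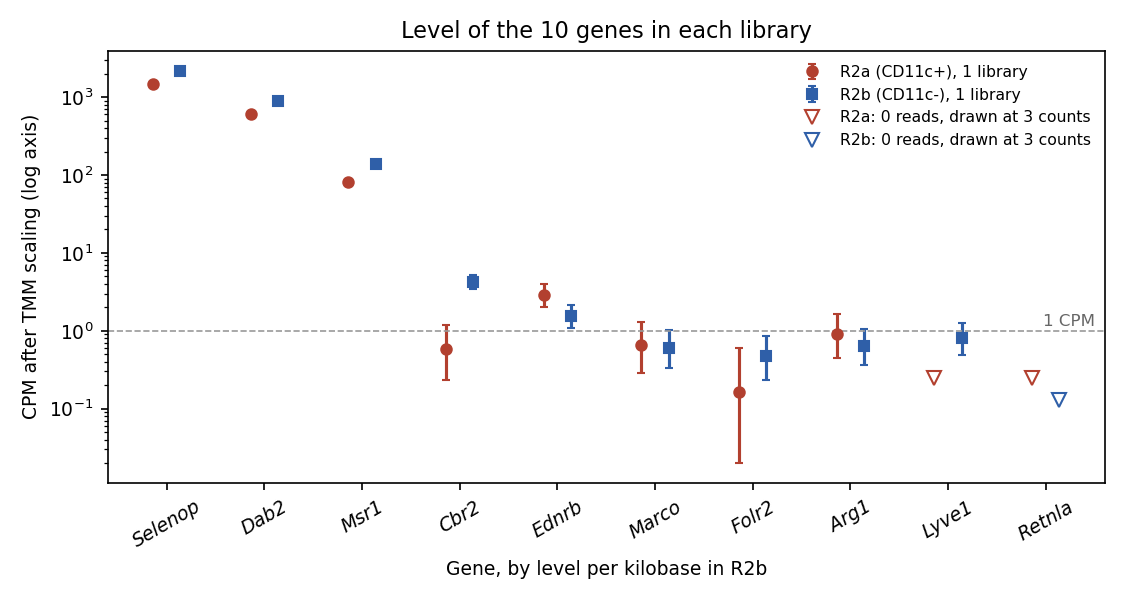
Level of each gene in R2a (circles) and R2b (squares) in CPM on a log axis, with exact Poisson 95% intervals and 1 library per population. Open triangles stand for 0 reads and are drawn at the level of 3 counts. Selenop, Dab2 and Msr1 lie far above the other genes in both libraries.

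Cbr2 was lower in R2a, and it was the 1 gene of the set that passed the rule, beside 1.84% of all genes compared that were lower in R2a and 1.93% that were higher. The median log2 ratio of the 5 genes over the minimum was -0.58, and that of all 15603 genes over it was -0.01. Selenop, Dab2 and Msr1 had ratios below 1 whose intervals excluded 1, but were less than 2-fold apart between libraries. Ednrb had the opposite sign. In RNA of pooled sorted cells, fewer cells of a type and less RNA per cell cannot be told apart.

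**Figure D2:**
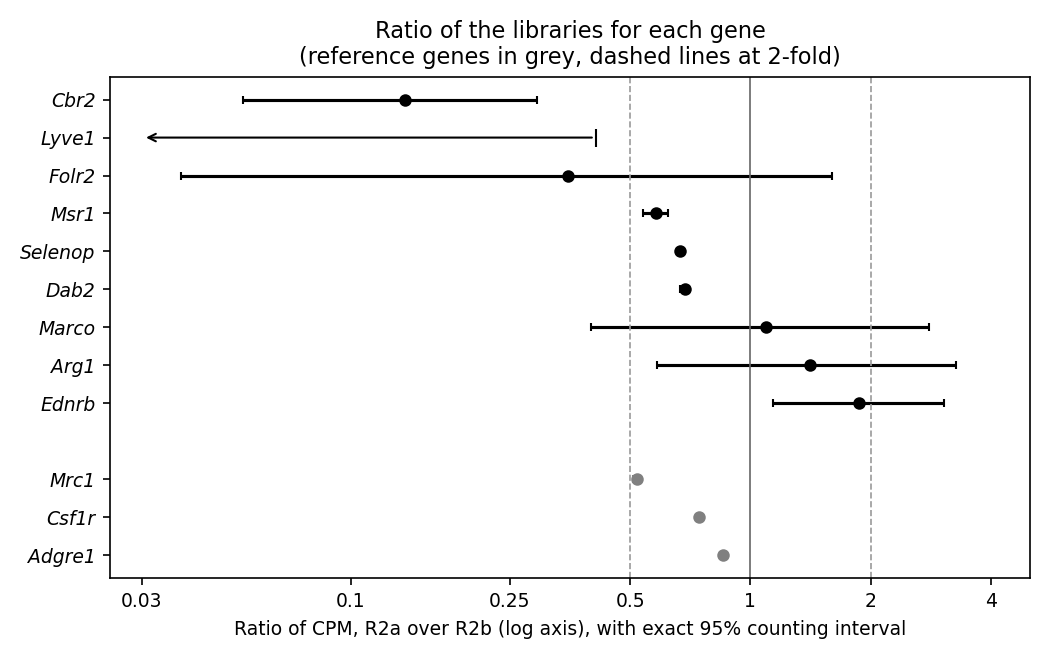
Ratio of CPM in R2a over R2b on a log axis with exact 95% counting intervals, for the 9 genes with a read (black) and 3 reference genes (grey). The Lyve1 arrow runs below the upper bound of its interval, since R2a had 0 reads. Cbr2 and Lyve1 are the genes whose intervals lie wholly below the 2-fold line at 0.5.

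Promoters of 3 genes are shown because these genes mark the ends of the set: Cbr2, the one that differed by the rule; Selenop, the most abundant; and Retnla, an interleukin-4 target with 0 reads. The windows are RefSeq's, on build GRCm38.p6, from 250 bases before the start site to 50 after it, written 5′ to 3′ on the gene's strand. Capitals mark matches, on either strand, to the letters TGCTGA (the core of the MAF motif), TTC and GAA with 4 bases between them (STAT6), GAGGAAGT (PU.1), TTGCNNAA (C/EBP) and GAAA repeated with 2 bases between the copies (interferon regulatory factors). Cbr2 is on the minus strand at chr11:120731972-120732271, Selenop on the plus strand at chr15:3270517-3270816, the first of its 3 windows, and Retnla on the plus strand at chr16:48842359-48842658.
Cbr2: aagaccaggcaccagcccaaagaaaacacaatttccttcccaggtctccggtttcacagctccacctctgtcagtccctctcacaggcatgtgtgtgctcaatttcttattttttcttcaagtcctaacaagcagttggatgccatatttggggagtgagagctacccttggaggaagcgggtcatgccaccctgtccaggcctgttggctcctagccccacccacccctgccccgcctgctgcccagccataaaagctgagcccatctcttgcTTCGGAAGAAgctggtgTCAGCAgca
Selenop: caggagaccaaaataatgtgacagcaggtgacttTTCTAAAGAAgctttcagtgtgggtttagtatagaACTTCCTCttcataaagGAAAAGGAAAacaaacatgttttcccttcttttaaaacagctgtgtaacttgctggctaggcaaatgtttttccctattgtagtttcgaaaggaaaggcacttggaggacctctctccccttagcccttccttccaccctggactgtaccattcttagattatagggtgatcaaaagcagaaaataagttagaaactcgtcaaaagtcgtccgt
Retnla: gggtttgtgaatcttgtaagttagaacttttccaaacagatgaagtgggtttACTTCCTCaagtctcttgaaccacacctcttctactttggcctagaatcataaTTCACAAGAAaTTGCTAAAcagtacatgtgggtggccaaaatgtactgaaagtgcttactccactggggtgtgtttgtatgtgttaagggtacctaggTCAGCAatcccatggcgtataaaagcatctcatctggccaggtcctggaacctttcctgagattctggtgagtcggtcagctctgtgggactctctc

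The Cbr2 window held a STAT6 match 25 bases and a MAF match 42 bases after the start site. The Retnla window held matches to PU.1, STAT6, C/EBP and MAF letters, beginning 198, 145, 134 and 47 bases before the start. In Retnla, the capitals of STAT6 and C/EBP lie 1 base apart. Windows were found for 7 of the 10 genes, 11 windows in all, and not for Lyve1, Msr1 and Arg1. MAF letters were in 6 of the 11 windows, against 19.5% of all 32851 promoter windows, and STAT6 letters in 3 of 11, against 6.95%. PU.1 letters were in 3 of 11 windows, against 3.20%, C/EBP letters in 2, against 10.8%, and interferon factor letters in 2, against 3.44%. The 3 Selenop windows overlap, so the interferon factor letters counted in 2 windows are the same stretch of Selenop bases. The PU.1 letters in 2 of their 3 windows are likewise 1 stretch of Selenop. The STAT6 letters of Selenop are in the window shown only, and the last of its 3 windows held 0 matches. By gene, MAF letters were in 5 of 7, STAT6 in 3, PU.1 in 2, C/EBP in 2 and interferon factor letters in 1. A match is a description of letters and not of binding.

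Cbr2 encodes a carbonyl reductase of mitochondria that uses NADPH and is often used as a marker of tissue-resident macrophages. The gene (ENSMUSG00000025150.10) lies on chromosome 11 from 120729489 to 120732114 on the minus strand of GRCm38. It had 7 reads in R2a against 98 in R2b, which is 0.577 CPM and 4.21 CPM. At the level of R2b, 51.1 reads would have been counted in R2a. Cbr2 was therefore 7.30 times lower in R2a (3.41 to 18.6), with a log2 ratio of -2.13. Among the 15603 genes over the CPM minimum, 14 had a lower log2 ratio. Of the 75-base stretches of Cbr2, 8.31% also occur in transcripts of Gm11771, which had 0 reads in R2a against 2 in R2b. Under the 5 other scalings of the libraries the log2 ratio lay between -2.26 and -2.01. It was -2.67 with 0.1 CPM added and -1.27 with 2 CPM added, and at a CPM minimum of 5 Cbr2 was no longer compared. Set against the macrophage growth factor receptor Csf1r, which needs no scaling, Cbr2 had 0.228 reads for every 1000 of Csf1r in R2a and 1.24 in R2b, an odds ratio of 0.184 (0.0720 to 0.393).

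Lyve1 encodes the hyaluronan receptor of lymphatic endothelium, which macrophages near vessels also carry. The gene (ENSMUSG00000030787.4) lies on chromosome 7 from 110850607 to 110863239. It had 0 reads in R2a against 19 in R2b. At the R2b level, 0.816 CPM, 9.91 reads would have been counted in R2a. The upper bound of the exact interval of its ratio was 0.411. It was under the CPM minimum in both libraries and did not enter the calls. Without that minimum Lyve1 was called lower, where 1.60% of all genes were lower and 1.58% higher. Lymphatic endothelial markers gave 95 reads in R2a against 235 in R2b over 6 genes, most of them from Prox1 with 67 and 186. The ratio of Prox1 was 0.691 (0.514 to 0.918). Flt4 had 18 reads in R2a against 24 in R2b, a ratio of 1.44 (0.735 to 2.76) whose interval includes 1. Pdpn had 7 reads in R2a against 19 in R2b. Flt4 and Pdpn were chosen after their values were seen. Ccl21a, also on that list, had 0 reads in both, a count that may be incomplete if its reads align to several places, since such reads were left out. Mmrn1 had 1 read in R2a against 0 in R2b. The part of lymphatic RNA in the Lyve1 reads was not tested.

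Folr2 encodes folate receptor beta, a membrane-anchored receptor that takes folate into macrophages. The gene (ENSMUSG00000032725.10) lies on chromosome 7 from 101839988 to 101857194. It had 2 reads in R2a against 11 in R2b, a ratio of 0.349 (0.0375 to 1.60), so a difference was not detectable at this depth. Its count may be incomplete. The antisense gene Gm10602 shares 975 exonic bases with it and holds 47.1% of its stretches of 75 bases, the read length. Reads on such bases cannot be assigned to 1 gene unless strand is used, and whether the counting used strand is not stated in the sources. Gm10602 itself had 16 reads in R2a against 34 in R2b. The related receptor gene Folr1, expressed by proximal tubule cells, stood at 25.0 CPM in R2a against 22.9 CPM in R2b, a ratio of 1.09 (0.942 to 1.25).

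Selenop encodes selenoprotein P, the secreted carrier that delivers selenium to tissues. The gene (ENSMUSG00000064373.11) lies on chromosome 15 from 3268547 to 3280508. It had 17762 reads in R2a against 50992 in R2b, or 1463 CPM and 2191 CPM. Per kilobase of exon its level was 515 CPM in R2a against 771 CPM in R2b, and 36 genes stood above it in R2a and 28 in R2b. The ratio was 0.668 (0.656 to 0.679), so the libraries differed beyond counting error but not by the 2-fold rule. The gene Ccdc152 on the other strand shares 439 exonic bases with Selenop and had 68 reads in R2a against 145 in R2b.

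Dab2 encodes a clathrin adaptor that draws lipoprotein receptors into coated pits, and it is also made by proximal tubule cells. The gene (ENSMUSG00000022150.16) lies on chromosome 15 from 6299788 to 6440712. It had 7426 reads in R2a against 20795 in R2b, or 612 CPM and 894 CPM, a ratio of 0.685 (0.667 to 0.703). Proximal tubule RNA was present at like levels in both libraries. The summed level of 12 proximal tubule markers was 3927 CPM in R2a against 3993 CPM in R2b, 12 of the 12 were detected, 0 passed the rule and their median log2 ratio was -0.05. That median was 0.12 when the libraries were scaled to macrophage core genes. The part of tubule RNA in the Dab2 reads was not tested.

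Selenop and Dab2 kept a like proportion to each other in the libraries. There were 2.39 reads of Selenop for each read of Dab2 in R2a and 2.45 in R2b, an odds ratio of 0.975 (0.945 to 1.01). Relative to Msr1 both were more abundant in R2a: Dab2 had 7.59 reads for each read of Msr1 in R2a and 6.43 in R2b, an odds ratio of 1.18 (1.09 to 1.28). Relative to Adgre1, the F4/80 gene, the odds ratio was 0.781 (0.762 to 0.801) for Selenop and 0.801 (0.776 to 0.827) for Dab2. Relative to the mannose receptor gene Mrc1 it was above 1 for both, 1.29 (1.25 to 1.32) for Selenop and 1.32 (1.27 to 1.36) for Dab2.

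Msr1 encodes scavenger receptor A, a trimer with a collagen-like stalk that takes up modified lipoproteins. The gene (ENSMUSG00000025044.16) lies on chromosome 8 from 39581685 to 39642673. It had 978 reads in R2a against 3232 in R2b, or 80.6 CPM and 139 CPM. The ratio was 0.580 (0.540 to 0.623), 1.72 times lower in R2a, with a log2 ratio of -0.78. Among genes over the CPM minimum, 576 of 15603 had a lower log2 ratio than Msr1. Under a 1.5-fold rule Msr1 was also called lower, where 5.79% of all genes were called lower.

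Marco encodes the other class A receptor of the set, a receptor for bacteria that macrophages of the lung and the marginal zone of the spleen carry. The gene (ENSMUSG00000026390.7) lies on chromosome 1 from 120474538 to 120505024. It had 8 reads in R2a against 14 in R2b, a ratio of 1.10 (0.398 to 2.80). Msr1 stood at 12.7 CPM per kilobase in R2a and 21.9 in R2b, whereas Marco stood at 0.342 CPM per kilobase in R2a and 0.313 in R2b. The class A relatives were scarce as well. Colec12 had 10 reads in R2a against 26 in R2b, Scara5 had 7 and 18, and Scara3 had 3 and 2.

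Arg1 encodes the arginase that turns arginine into ornithine and urea. The gene (ENSMUSG00000019987.8) lies on chromosome 10 from 24915221 to 24927484. It had 11 reads in R2a against 15 in R2b, a ratio of 1.41 (0.584 to 3.28), and a difference was not detectable at this depth. Its mitochondrial relative Arg2 had 15 reads in R2a against 25 in R2b, and Nos2, the inducible nitric oxide synthase that competes for arginine, had 4 and 7. Retnla encodes RELM alpha, a secreted product of macrophages exposed to interleukin-4. The gene (ENSMUSG00000061100.3) lies on chromosome 16 from 48842551 to 48844461. No 75-base stretch of it occurs in another gene's transcripts. It had 0 reads in both libraries, and the exact Poisson 95% interval of that count reaches 0.304 CPM in R2a against 0.159 CPM in R2b.

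Ednrb encodes the endothelin receptor B, which endothelium carries and some tissue macrophages express. The gene (ENSMUSG00000022122.14) lies on chromosome 14 from 103814625 to 103844402. It had 35 reads in R2a against 36 in R2b from a library with more reads, or 2.88 CPM and 1.55 CPM. The ratio was 1.86 (1.14 to 3.05) with a log2 ratio of 0.73, under the 2-fold rule. Under a 1.5-fold rule Ednrb was called higher, where 5.57% of all genes were called higher. Most blood endothelial markers had the same sign, 8 of 12, and 4 had the opposite one. The summed level of 12 endothelial markers was 75.9 CPM in R2a against 55.4 CPM in R2b, with single markers from 1.89 to 22.7 CPM in R2a and from 0.645 to 11.3 CPM in R2b. All 12 were detected, their median log2 ratio was 0.39, and 2 of them, Cldn5 and Robo4, were called higher, beside 1.93% of all genes. Of the 4 with ratios below 1, Plvap was the farthest, with 35 reads in R2a against 128 in R2b, a ratio of 0.524 (0.350 to 0.767), and it was chosen after its values were seen. The part of endothelial RNA in the Ednrb reads was not tested. Ednra, the other endothelin receptor gene, had 1 read in R2a against 7 in R2b, a ratio of 0.274 (0.00608 to 2.13).

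Per kilobase of exon, the order of levels in R2a was Selenop, Dab2, Msr1, Ednrb, Cbr2, Arg1, Marco and Folr2, with Lyve1 and Retnla at 0. In R2b it was Selenop, Dab2, Msr1, Cbr2, Ednrb, Marco, Folr2, Arg1 and Lyve1, with Retnla at 0. The counting intervals of the first 3 were apart from their neighbours in both libraries. From Ednrb downward in R2a, neighbouring intervals overlapped. In R2b, Cbr2 at 3.17 CPM per kilobase was apart from Msr1 above it and from Ednrb at 0.363 below it, and from Ednrb downward neighbours overlapped. Cbr2 thus had a place of its own in R2b and none in R2a.

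**Figure D3:**
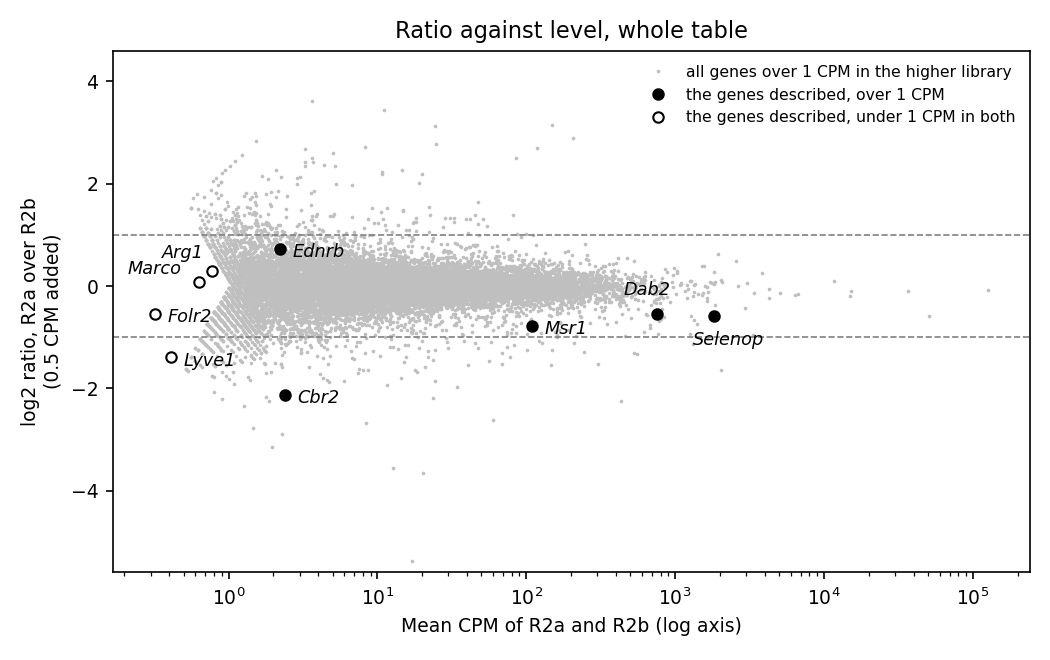
Log2 ratio of R2a over R2b (0.5 CPM added) against mean CPM of the libraries on a log axis, for all 15603 genes over 1 CPM (grey) and for the genes described (black; open circles are under 1 CPM in both). Dashed lines mark the 2-fold rule. Cbr2 lies at -2.13, and the genes with few reads lie where grey points spread widely.

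Other genes of perivascular macrophages, several of them better expressed than Lyve1 and Folr2, were examined as a list. Of its 30 genes, chosen with earlier results of these data known, 24 were over the CPM minimum, 10 were lower and 0 higher, against 1.84% and 1.93% of all genes. Their median log2 ratio was -0.83, and it lay between -0.83 and -0.66 over all scalings tried. The number lower was 7 to 10 over those scalings. F13a1, a coagulation factor subunit, had 4 reads in R2a against 787 in R2b. Cd163, the haemoglobin scavenger receptor, had 31 reads in R2a against 889 in R2b. Fcrls, an Fc receptor-like gene, stood at 16.3 CPM in R2a against 103 CPM in R2b. Mrc1 stood at 858 CPM in R2a against 1651 CPM in R2b, a ratio of 0.519 (0.508 to 0.531), just inside the 2-fold limit.

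Levels within that list were uneven, as in the set of 10. Stab1, a scavenger receptor of endothelium and macrophages, stood at 824 CPM in R2a against 1809 CPM in R2b, and the transcription factor gene Maf at 480 CPM in R2a against 653 CPM in R2b. Timd4, a receptor for dying cells often used together with Lyve1 and Folr2, had 3 reads in R2a against 37 in R2b. Vsig4, a complement receptor, had 3 reads in R2a against 12 in R2b. Maf, Timd4 and Vsig4 were chosen after their values were seen.

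Markers of other cell types also differed between the libraries. Of 10 fibroblast and pericyte markers 8 were over the minimum and 3, Dcn, Col1a2 and Col3a1, were lower in R2a, with a median log2 ratio of -0.69. Their summed level was 24.6 CPM in R2a against 35.7 CPM in R2b, and Lum had 0 reads in both. Of 10 monocyte markers 7 were over the minimum and 2 were higher, the chemokine receptor Ccr2 at 267 CPM in R2a against 29.7 CPM in R2b and Treml4 at 8.98 CPM in R2a against 1.38 CPM in R2b. The summed monocyte level was 741 CPM in R2a against 386 CPM in R2b, with S100a4 at 0 reads in both. Of 10 dendritic cell markers 9 were over the minimum, Dpp4 and Xcr1 were higher, and 4 of the 9 had log2 ratios below 0. The summed level was 1095 CPM in R2a against 1047 CPM in R2b. Most of that sum was Sirpa, at 960 CPM in R2a against 972 CPM in R2b. Of 10 neutrophil markers 2 were over the minimum and 1, Mmp9, was lower, with 2 reads in R2a against 103 in R2b. The neutrophil markers summed to 61.1 CPM in R2a against 65.5 CPM in R2b, and Ly6g had 0 reads in both. Most of that sum was Csf3r, at 60.4 CPM in R2a against 59.4 CPM in R2b. Of 10 B and T cell markers 5 were over the minimum and 1, Cd3e, was lower. Their sum was 33.5 CPM in R2a against 44.5 CPM in R2b, mostly Cd79b at 27.4 CPM in R2a against 32.0 CPM in R2b. Pdgfrb, Cspg4, Sirpa, Csf3r and Cd79b were chosen after their values were seen. Among all genes 1.84% were called lower and 1.93% higher. The part of these cells in the ratios of Cbr2 and of the perivascular list was not tested.

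Of 28 other genes listed for alternative activation 27 were in the table and 19 were over the CPM minimum. Of the 19, 2 were lower in R2a and 1 was higher, against 1.84% and 1.93% of all genes. The median log2 ratio of the 19 was -0.24, and it came to -0.07 under scaling to macrophage core genes. The lower ones were Clec10a, a lectin, at 8.49 CPM in R2a against 28.3 CPM in R2b, and Klf4, a transcription factor, at 59.7 CPM in R2a against 143 CPM in R2b. The higher one was Ccl22, a chemokine, with 25 reads in R2a against 0 in R2b. Il4ra, the receptor chain for interleukin-4, stood at 217 CPM in R2a against 269 CPM in R2b, and Stat6 at 177 CPM in R2a against 171 CPM in R2b. Chil3, a chitinase-like product, had 0 reads in R2a against 13 in R2b, and Chil4 and Alox15 had 0 in both. Mgl2, a lectin that interleukin-4 also induces, was abundant, at 261 CPM in R2a against 438 CPM in R2b, a ratio of 0.596 (0.573 to 0.620). Il4ra, Stat6, Ccl22, Chil3, Chil4, Alox15 and Mgl2 were chosen after their values were seen.

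Scavenger receptors besides Msr1 and Marco, of class A and other classes, were listed too. They gave 3 genes lower and 0 higher among 14 over the minimum of 19 listed, against 1.84% and 1.93% of all genes. The median log2 ratio of the 14 was -0.22. Scaling to macrophage core genes brought that median to -0.07 and left fewer genes lower, with 1 to 3 over all scalings. The lower ones were Cd163, Stab1 and Cd5l, the last a secreted protein of macrophages with 1 read in R2a against 24 in R2b, a ratio of 0.0799 (0.00194 to 0.490). Cd163, Stab1, Mrc1 and Cd36 are in both this list and the perivascular one, and Mrc1 is in the alternative activation list too. Clec10a is in the perivascular and alternative activation lists and was counted as lower in both. The counts of these lists are therefore not separate. Cd36, a fatty acid and lipoprotein receptor, had the opposite sign, at 244 CPM in R2a against 161 CPM in R2b, and did not pass the rule. Cd5l and Cd36 were chosen after their values were seen.

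**Figure D4:**
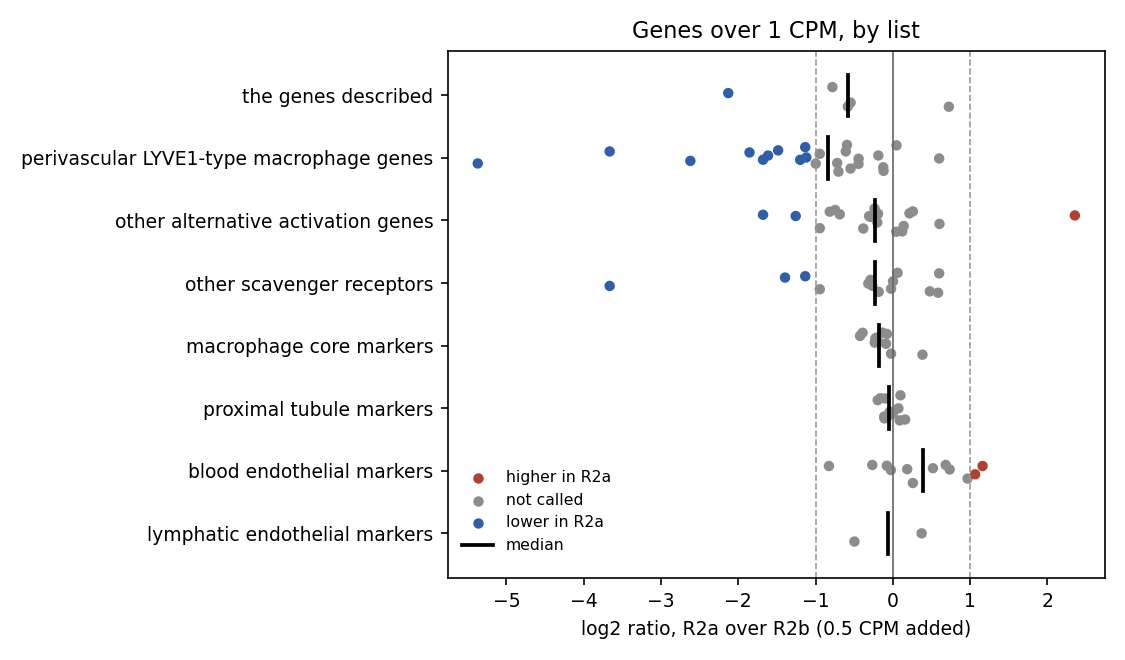
Log2 ratio of R2a over R2b for genes over 1 CPM in the higher library, by list; each point is a gene and each bar a median, and dashed lines mark the 2-fold rule. The perivascular list has its median at -0.83, the proximal tubule markers at -0.05 and the blood endothelial markers at 0.39.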

How the data were processed

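The authors deposited raw counts, as whole numbers per gene. Per the submitters' processing notes and the labels, paired reads of 75 bases were aligned to GRCm38 with STAR 2.5.3 and counted with HTSeq 0.9.1, and DESeq2 is named for differential expression. The annotation release and strand setting are not recorded in the labels. Summary rows of the counter (52.1% of all counts in R2a and 49.7% in R2b) were left out; reads aligned to several places are among them, so genes with near copies have incomplete counts. Symbols, positions and exon lengths came from GENCODE M21 on GRCm38, which matched 48349 of 48795 identifiers.

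CPM was computed after TMM scaling in edgeR 4.0.16, with intervals from scipy 1.17.1: Clopper-Pearson on the split of a gene's reads for ratios, Poisson for levels, and conditional exact intervals for odds ratios of reads. With 1 library per group neither edgeR nor DESeq2 can estimate a spread, so a rule of size took the place of a test.

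The 10 genes and the lists were chosen with earlier results of these data known. Named from each list were up to 3 called genes over 5 CPM with the largest log2 ratios or, failing that, the 1 with the largest, plus Mrc1, Csf1r, Adgre1, Itgax and family relatives. Genes near a called member over 10 CPM were to be named, and no member met that. The 28 odds ratios, sharing of sequence and other names were added after the data were seen. No protein sequence was used here.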

Additional observations from a re-analysis of the deposited data

How the results depend on the processing

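Against 1 of the 10 genes lower in R2a and 0 higher, a CPM minimum of 5 gave 0 lower, since Cbr2 is under it. Without technical gene classes, and with no CPM minimum, 2 were lower, Cbr2 and Lyve1, as Lyve1 then enters the comparison. Calls over all genes rose as well under these settings. They came to 403 lower and 421 higher without technical gene classes, and 393 lower and 388 higher with no CPM minimum, against 287 and 301. A 1.5-fold rule gave 2 lower, Cbr2 and Msr1, and 1 higher, Ednrb. All other alternatives run gave Cbr2 alone. The median log2 ratio of the set, -0.58, was -0.50 with total counts, -0.41 with scaling to macrophage core genes and -0.55 with no CPM minimum, which adds genes. Of the 13 alternatives, only the 5 other scalings and the random thinning of R2b to the read total of R2a could change the sign of a log2 ratio. None of the 9 genes with reads changed sign under these. The other alternatives cannot change a sign and are no check of it.

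Among all genes, 301 were higher and 287 lower. Counts of higher and lower were 493 and 462 with 0.1 CPM added, 82 and 78 with 2 CPM added, 92 and 97 with a CPM minimum of 5, 869 and 903 with a 1.5-fold rule and 41 and 16 with a 4-fold rule. Scaling to macrophage core genes gave 438 higher and 189 lower, 69.9% higher against 51.2%. It moves log2 ratios up by at most 0.17, and by less for genes with few reads, because 0.5 CPM is added. Cbr2, for example, went from -2.13 to -2.01. Restriction to protein-coding genes left 168 higher and 206 lower.

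No paired analysis was possible because each population had 1 library, and leaving out a library was not run for the same reason. Depth limits Folr2, Marco and Arg1, whose intervals of the ratio reach from below 0.6 to above 1.5.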

Other observations

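The arginine, folate, selenoprotein and Dab2 lists, around single genes of the set, had 0 genes past the rule, beside 1.84% of all genes lower and 1.93% higher. Of 12 arginine transport and metabolism genes 10 were over the CPM minimum, 0 passed the rule and the median log2 ratio was 0.09. Odc1, which makes polyamines from ornithine, was the farthest, at 72.5 CPM in R2a against 104 CPM in R2b. All 11 folate genes were over the minimum with 0 called, and Slc46a1, a folate transporter, stood at 5.44 CPM in R2a against 7.65 CPM in R2b. Among selenoproteins and their handling genes 19 of 20 were over the minimum and 0 were called, with a median of -0.08, while Selenop had -0.58. Of that list, Gpx3 (1296 CPM in R2a against 1218 CPM in R2b) and Lrp2 (956 and 1068 CPM) are also proximal tubule markers. Lrp2 and Cubn of the Dab2 list are such markers too. The part of tubule RNA in these lists was not tested. Of 16 measured genes around Dab2 0 were called, with Lrp1, a lipoprotein receptor that Dab2 can bind, the farthest at 312 CPM in R2a against 612 CPM in R2b. The medians of the folate, selenoprotein and Dab2 lists turned positive, to 0.05, 0.09 and 0.08, with scaling to macrophage core genes.

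Hyaluronan genes gave 1 lower of 7 measured, beside 1.84% of all genes. It was Hyal1, a lysosomal hyaluronidase, with 9 reads in R2a against 53 in R2b, a ratio of 0.326 (0.141 to 0.666). Cd44, the widespread hyaluronan receptor, stood at 162 CPM in R2a against 104 CPM in R2b, and its log2 ratio of 0.64 had the opposite sign to Lyve1. Of the 5 carbonyl reductase relatives 1 was lower, beside the same 1.84% of all genes: Hsd11b1, at under 5 CPM in both. Cbr1 had a ratio of 1.02 (0.845 to 1.22), and Cbr3 had 0.603 (0.419 to 0.851). Endothelin genes gave 0 called of 4 measured. Edn1, one of the ligands, had 7 reads in R2a against 2 in R2b, and Edn2 had 0 in both. Hyal1, Hsd11b1 and Edn1 were chosen after their values were seen.

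Markers of body cavity macrophages, which can carry Arg1 and Marco in other tissues, gave 4 of 8 over the minimum and 0 called, with Gata6 at 3 reads in R2a against 2 in R2b and Selp and Alox15 at 0 in both. By distance over the libraries' log2 CPM, a measure over 2 libraries only, the protein-coding gene nearest to Dab2 was Nfkbiz, to Msr1 Lrrc8d and to Selenop Ctsb. These 3 neighbours were also looked up after the values were seen.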
